A study of Gallus gallus with 10 samples.

Results

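Oligodendrocytes are the glial cells that wrap axons of the central nervous system in myelin, and the genes described here mark their line of descent from progenitor to myelinating cell. The set comprised 8 genes chosen by name: the transcription factor genes OLIG2 and SOX10, the growth factor receptor gene PDGFRA, and the myelin genes CNP, UGT8, MBP, CLDN11 and MAG. A probe set was counted as a member if its gene symbol in the array annotation, or the current symbol of its gene identifier, was among these names. This gave 11 of the 38439 probe sets tested, for 7 of the 8 genes and of 13051 genes in all. No probe set carried the symbol MAG alone, so MAG, which encodes an adhesion protein of the inner myelin layer, was not analysed here.

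The samples were total RNA from dissected whole brains of chicken (Gallus gallus) embryos, with 5 male and 5 female samples and 1 Affymetrix array for each. Males carry the sex chromosomes ZZ and females ZW. The labels give sex as the sole difference between the groups, and no source used here gives embryonic age, breed, genotype or the number of embryos behind a sample. The title of male replicate 1, unlike those of the other samples, names no sex and no letter, and its sex is from its description. Since nothing says that samples came from separate embryos, p-values cover only the variation among these samples, and that variation may be technical. All values below are log2(intensity + 16) of the deposited linear intensity, and fold changes are on that scale. The number of arrays limits the precision.

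In the vertebrate brain OLIG2 specifies the oligodendrocyte lineage, and SOX10 is required for its later differentiation. Progenitors carry the receptor encoded by PDGFRA and divide in response to its ligand. As the cells mature they make CNP, an enzyme of the cytoplasmic channels of myelin, UGT8, the enzyme that makes the galactolipids of myelin, MBP, which compacts the membrane, and CLDN11, the tight junction protein of the sheath. In bulk tissue, fewer cells of a type and less RNA per cell cannot be told apart. None of the 7 measured genes lies on a sex chromosome in the reference gene table. OLIG2 and SOX10 were placed on chromosome 1, PDGFRA and UGT8 on chromosome 4, MBP on chromosome 2, CLDN11 on chromosome 9 and CNP on chromosome 27.

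The arrays were similar in scale. Their median intensity ran from 592 to 720, and pairwise correlations across all tested probe sets, which are not independent, ran from 0.918 to 0.946. The 689 probe sets with identifiers of viral sequences served as the background reference, and the background limit of an array was the 95th percentile of these. It ran from 7.69 on male replicate 1 to 8.73 on female replicate 3. The neuronal markers (8 of 8 measured) and the astrocyte and radial glia markers (9 of 9 measured) exceeded the limit on all arrays, as did 72.7% of all genes. Of the blood genes 5 of 5 measured did so as well, and of the meningeal and connective tissue genes 7 of 9.

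The 7 measured members, genes of the progenitor, of its regulators and of the myelinating cell, all gave a signal in the embryonic brains. Some other genes of the wider myelin and lineage lists lay under the background limit on some arrays, as described below. All 11 probe sets exceeded the background limit on all 10 arrays, where 51.7% of all probe sets did, with or without a gene symbol. Counted by gene, 7 of 7 did so, against 72.7% of all genes. Of the member probe sets, 10 of 11 exceeded the 99th percentile of the background on all arrays. The exception was the dimmer SOX10 probe set, which passed it on 9 arrays. Probe sets differ in how well they bind their target, so a level was read against background and not against the level of another gene, and with a single stage in the series the progress of myelination was not placed on a time scale.

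**Figure D1:**
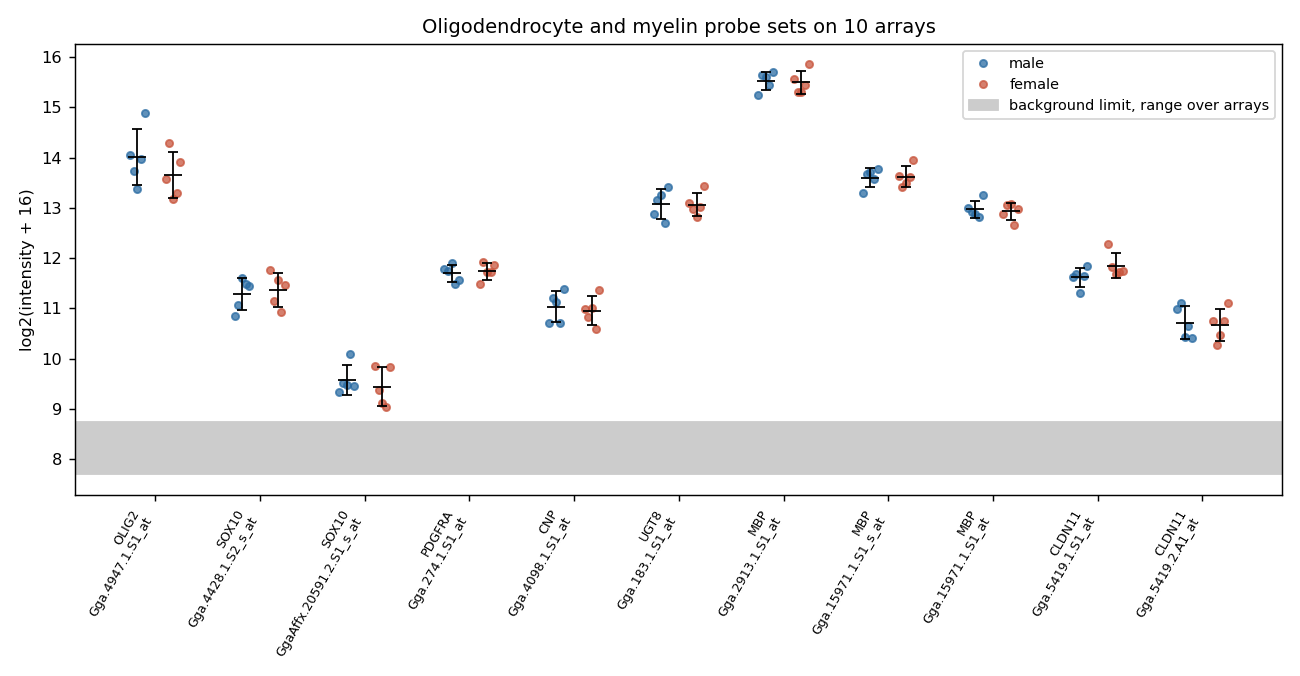
Log2(intensity + 16) of the 11 probe sets (horizontal axis, gene and probe set) on the 5 male and 5 female arrays, with the mean and SD of each sex as black bars and the probe sets of a gene from brightest to dimmest. The grey band is the range over arrays of the background limit (7.69 to 8.73). All points lie above it, and the sexes overlap in every probe set.

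Among the regulators, OLIG2 was the most variable member. On the male arrays its level was 14.06, 13.74, 13.37, 13.98 and 14.88 in replicates 1 to 5. On the female arrays it was 13.57, 14.29, 13.18, 13.29 and 13.91. The range over the 10 arrays was 1.70, a 3.26-fold range in intensity, with male replicate 5 highest and female replicate 3 lowest. Its SD over the arrays, 0.52, exceeded that of 96.7% of the probe sets at or above the median level of all probe sets, which was 9.33. The mean level of the vessel and pericyte markers had r = 0.63 with OLIG2 over the arrays (permutation p = 0.051, adjusted p = 0.98 over 49 relations of members with array measures and marker lists) and rho = 0.73 (permutation p = 0.021, adjusted p = 0.99). The mean level of the blood genes had r = -0.54 with OLIG2 (permutation p = 0.10, adjusted p = 0.98) and rho = -0.62 (permutation p = 0.061, adjusted p = 0.99). For the ratio of 3' to 5' actin signal, a measure of RNA quality described below, r was 0.43 (permutation p = 0.21, adjusted p = 0.98). It was 0.69 without the 2 arrays of most extreme ratio. The other measures had r from -0.17 to 0.22. The part of any of these in the spread of OLIG2 was not tested.

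SOX10 was read by 2 probe sets. The brighter had levels of 10.85, 11.06, 11.61, 11.48 and 11.45 in males. In females they were 11.77, 11.14, 11.56, 10.92 and 11.46. Female replicate 1 was highest and male replicate 1 lowest, and the sexes overlapped throughout. The dimmer probe set ran from 9.03 to 10.09, with male replicate 4 highest. Over the arrays the pair had a Pearson's r of 0.50 (permutation p = 0.14, adjusted p = 0.34 over 5 pairs of probe sets of the same gene) and a Spearman's rho of 0.52 (permutation p = 0.13, adjusted p = 0.33). Without the 2 arrays farthest from the median r was 0.24. Both carry a suffix that the manufacturer gives to probe sets matching more than a single transcript.

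PDGFRA, the receptor of the progenitors, varied least of the 7 genes, each taken by its brightest probe set. Males had 11.78, 11.73, 11.91, 11.49 and 11.56, and females 11.48, 11.92, 11.71, 11.72 and 11.86. The range was 0.44, or 1.36-fold, and the SD of 0.16 exceeded that of 37.6% of the probe sets at or above the median level. Connective tissue cells of the meninges can also carry this receptor. The mean level of the 9 meningeal and connective tissue genes ran from 12.03 to 12.60 in males and from 12.04 to 12.65 in females. Over the arrays it had r = -0.042 with PDGFRA (permutation p = 0.91, adjusted p = 0.98) and rho = 0.12 (permutation p = 0.76). Without the arrays farthest from the median of that mean level, r was 0.36. The part of these genes' cells in the level of the PDGFRA signal was not tested.

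Among the myelin genes, CNP had levels of 10.70, 11.21, 11.13, 10.71 and 11.38 on the male arrays. On the female arrays it had 10.99, 10.82, 11.00, 10.59 and 11.37. Male replicate 5 and female replicate 5 were highest, and female replicate 4 was lowest. UGT8 had 12.87, 13.15, 13.26, 12.69 and 13.41 in males and 13.09, 12.98, 12.82, 13.01 and 13.43 in females. The same replicate of each sex was highest, and male replicate 4 was lowest. The range over arrays was 0.80 for CNP and 0.74 for UGT8.

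Of the member probe sets, the brightest of MBP gave the strongest signal over background, at 95.8 times the background limit or more on every array. The second MBP probe set lay at 27.4 times the limit or more and the dimmest at 17.4, with OLIG2 between them at 21.8. The brightest MBP probe set read 15.24, 15.64, 15.61, 15.45 and 15.71 in males. It read 15.57, 15.31, 15.31, 15.44 and 15.86 in females. Female replicate 5 was highest and male replicate 1 lowest, a range of 0.61 or 1.53-fold. On each array the intensity lay above that of at least 98.7% of all probe sets, which describes the signal and is no measure of transcript number.

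The 3 MBP probe sets did not read the same pattern. The second in brightness ran from 13.29 to 13.96 and followed the brightest one closely over the 10 arrays. Pearson's r was 0.96 (permutation p = 1e-05, the smallest that the permutations can give, adjusted p = 5e-05 over the 5 pairs), rho was 0.98 (adjusted p = 1e-04), and r was 0.94 without the 2 arrays farthest from the median. The dimmest ran from 12.66 to 13.25 and had r = 0.083 with the brightest probe set (permutation p = 0.83, adjusted p = 0.99) with a rho of -0.042 (adjusted p = 0.92). With the second probe set it had r = 0.0037 (permutation p = 0.99, adjusted p = 0.99) and rho = -0.079 (adjusted p = 0.92). It was highest on male replicate 5 and lowest on female replicate 4. The annotation names the same target sequence for the second and the dimmest probe set, and the ID of the second has the suffix for more than a single transcript.

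CLDN11 was also read by 2 probe sets that did not vary together. The brighter had 11.63, 11.69, 11.31, 11.63 and 11.83 in males and 12.28, 11.82, 11.68, 11.72 and 11.75 in females, with female replicate 1 above the other 9 arrays. The dimmer ran from 10.28 to 11.12, with male replicate 2 and female replicate 5 highest. Their r over arrays was 0.086 (permutation p = 0.83, adjusted p = 0.99) and rho was -0.14 (adjusted p = 0.92). Without the 2 arrays farthest from the median r was -0.49.

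No sex difference in these genes passed the test. The 7 genes showed male to female ratios from 0.851 for CLDN11 to 1.28 for OLIG2, each by its brightest probe set, and on all 11 probe sets the sexes overlapped. In limma, with p adjusted by Benjamini-Hochberg across the probe sets tested, 0 of 11 passed the threshold of 0.05, and 0 had an unadjusted p under 0.05, as 6.85% of all probe sets had. Of all probe sets 0.799% passed in either direction, 0.643% as higher in males and 0.156% as higher in females, so at these rates a count of 0 of 11 does not set the members apart. Every male lay above every female in 1.47% of all probe sets, and every female above every male in 0.819%, against 0 members in either direction. Counted by gene, 0 of 7 passed, where 1.59% of all genes passed with the higher level in males and 0.207% with the higher level in females, and the sexes were apart in 0 of 7, where 2.15% of genes had all males above all females and 0.736% the reverse.

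The intervals of the differences show how far the arrays can speak. For MBP, the brightest probe set averaged 15.53 ± 0.19 (SD, n = 5) over males and 15.50 ± 0.23 (SD, n = 5) over females, so males were higher by 0.031 (SE 0.14, limma adjusted p = 0.99). This is a ratio of 1.02, with a 95% interval from 0.824 to 1.27. The other MBP probe sets differed by -0.020 (SE 0.13) and 0.039 (SE 0.12). UGT8 was 13.08 ± 0.29 in males and 13.07 ± 0.23 in females, a ratio of 1.01 (95% interval 0.777 to 1.31, limma adjusted p = 0.997). CNP had a ratio of 1.05 (95% interval 0.789 to 1.41) and PDGFRA of 0.969 (95% interval 0.804 to 1.17). For none of the genes does a p above the threshold show equal levels.

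The widest interval was that of OLIG2. It averaged 14.01 ± 0.56 (SD, n = 5) over males and 13.65 ± 0.46 (SD, n = 5) over females, with males higher by 0.36 (SE 0.31, limma adjusted p = 0.91). The ratio of 1.28 had a 95% interval from 0.797 to 2.06. Male replicate 5 alone lay above all females. CLDN11 by its brighter probe set was 11.62 ± 0.19 in males and 11.85 ± 0.25 in females, a difference of -0.23 (SE 0.14, limma adjusted p = 0.85, ratio 0.851, 95% interval 0.679 to 1.07). The other CLDN11 probe set differed in sign, by 0.042 (SE 0.20), and the SOX10 probe sets differed in sign as well, at -0.080 (SE 0.20) and 0.14 (SE 0.21).

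**Figure D2:**
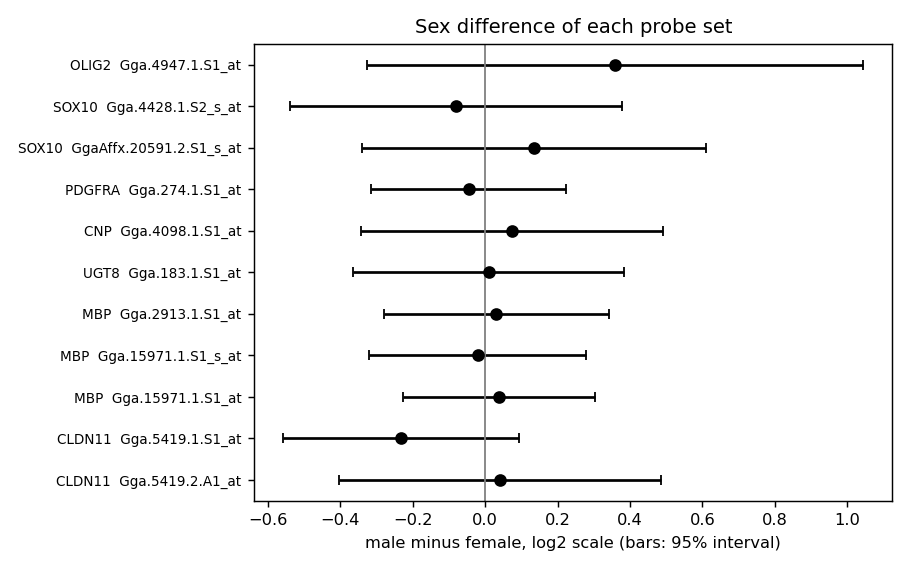
Male minus female difference of the 11 probe sets on the log2(intensity + 16) scale, with 95% intervals from limma (5 arrays of each sex). Every interval holds 0. OLIG2 has the widest interval, from -0.33 to 1.04.

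MBP, UGT8 and CNP varied together from array to array in the pooled sexes, and no pair with OLIG2, SOX10, PDGFRA or CLDN11 passed the test. These are genes of the mature cell, but so is CLDN11. By its brighter probe set CLDN11 had r = 0.099 with MBP, 0.069 with UGT8 and 0.043 with CNP. Whether the correlations differ from each other was not tested. Over the 10 arrays MBP and UGT8 had a Pearson's r of 0.85 (permutation p = 0.0021, adjusted p = 0.038 over the 21 pairs of the 7 genes, two-sided) and a Spearman's rho of 0.83 (permutation p = 0.0046, adjusted p = 0.061). CNP and UGT8 had r = 0.82 (permutation p = 0.005, adjusted p = 0.038) and rho = 0.75 (permutation p = 0.018, adjusted p = 0.12). CNP and MBP had r = 0.81 (permutation p = 0.0054, adjusted p = 0.038) and rho = 0.82 (permutation p = 0.0058, adjusted p = 0.061). These 3 pairs passed the threshold by r and not by rho.

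All 3 genes had their highest levels on male replicate 5 and female replicate 5, above their mean on male replicates 2 and 3, and below their mean on male replicates 1 and 4 and female replicate 2. After subtracting the mean of each sex, r was 0.85 for MBP with UGT8, 0.82 for CNP with UGT8 and 0.81 for CNP with MBP. Without the 2 arrays farthest from the median of the first gene, it was 0.92 for UGT8 with MBP, 0.87 for CNP with UGT8 and 0.86 for CNP with MBP. Without male replicate 5 and female replicate 5, a choice made after the values were seen, it was 0.70 for MBP with UGT8, 0.64 for MBP with CNP and 0.61 for UGT8 with CNP.

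**Figure D3:**
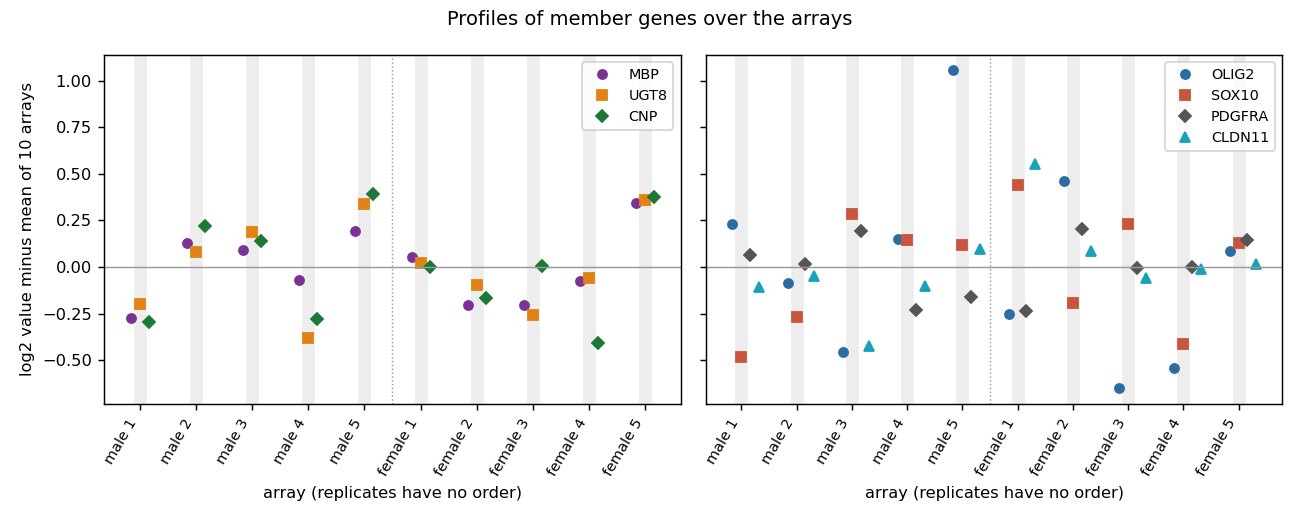
Log2 value of each gene minus its mean over the 10 arrays (vertical axis), by array (horizontal axis, males left and females right of the dotted line), for MBP, UGT8 and CNP in the left panel and OLIG2, SOX10, PDGFRA and CLDN11 in the right panel. The symbols of the left panel lie close together on most arrays and all lie above 0 on male replicate 5 and female replicate 5, and those of the right panel lie farther apart on most arrays.

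The call on these pairs depended on which array was left out. All 3 pairs still passed the adjusted threshold when female replicate 3 or female replicate 4 was left out. With 1 array left out, r stayed between 0.75 and 0.94 for the 3 pairs, but the number of pairs past the adjusted threshold fell from 3 to 0 when any of male replicates 1, 2, 3 and 5 and female replicates 1, 2 and 5 was left out, and to 1 when male replicate 4 was. The other 18 pairs had r from -0.54 for PDGFRA with CLDN11 (rho -0.30, permutation p = 0.11, adjusted p = 0.55) to 0.47 for SOX10 with CNP (rho 0.33, permutation p = 0.17, adjusted p = 0.70). After subtracting the mean of each sex, PDGFRA with CLDN11 had r = -0.72. By the dimmer CLDN11 probe set, without that subtraction, r with PDGFRA was -0.014. Without the 2 arrays farthest from the median of SOX10, SOX10 with CNP had r = -0.017. With any 1 array left out, that r stayed between 0.31 and 0.60. MBP had r = 0.41 with SOX10, 0.18 with OLIG2, 0.099 with CLDN11 and -0.056 with PDGFRA, none of which passed (adjusted p of at least 0.82).

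**Figure D4:**
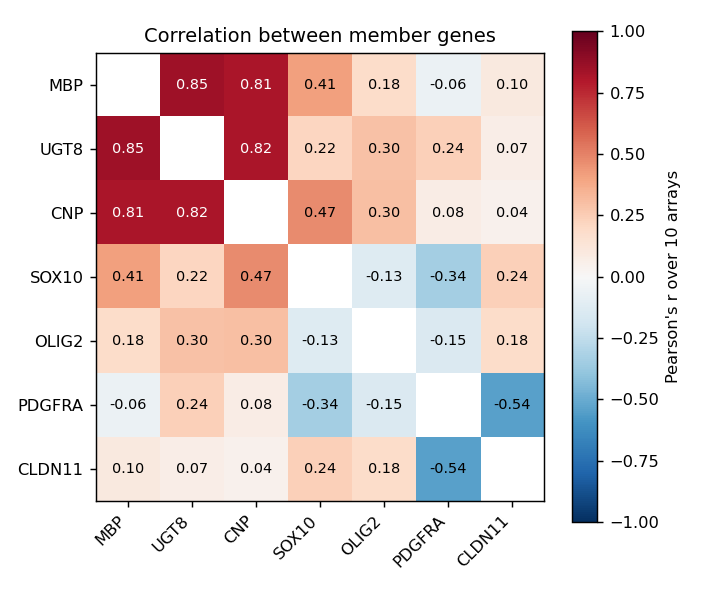
Pearson's r over the 10 arrays between the 7 measured genes, each by its brightest probe set; colour runs from blue at -1 to red at 1. The block of MBP, UGT8 and CNP holds values of 0.81 to 0.85, and the next highest value is 0.47.

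The probe sets of a gene differed in this respect too. The second MBP probe set had r = 0.78 with UGT8 and 0.75 with CNP. The dimmest MBP probe set had r = 0.31 with UGT8, 0.57 with CNP and 0.65 with OLIG2. These are descriptions over the same 10 arrays. With the mean over its probe sets in place of the brightest, MBP had r = 0.93 with CNP and 0.87 with UGT8.

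Measures of the arrays themselves were set beside the 3 genes. Signal at the 3' end of actin over that at its 5' end, which rises as RNA degrades, ran from 1.08 to 1.33 and was highest on male replicate 5. Its r was 0.63 with CNP (rho 0.54, permutation p = 0.050, adjusted p = 0.98 over 49 relations), 0.33 with UGT8 (permutation p = 0.35, rho 0.21) and 0.31 with MBP (permutation p = 0.39, rho 0.21). Without the 2 arrays of most extreme ratio these were 0.37, 0.36 and 0.044. The median of the background probe sets had r of 0.076 with CNP, -0.015 with UGT8 and -0.028 with MBP (permutation p of at least 0.84). The mean level of the astrocyte and radial glia markers had r = 0.57 with MBP (permutation p = 0.083, adjusted p = 0.98) and rho = 0.66 (permutation p = 0.044, adjusted p = 0.99). Its r was 0.41 with CNP and 0.32 with UGT8. Without the 2 arrays farthest from the median of that mean level, r was 0.32 with MBP, 0.12 with CNP and 0.16 with UGT8. The part of RNA quality and of other cells in the shared pattern was not tested.

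Among all genes at or above the median level, few followed MBP as closely as UGT8 and CNP did. By r over the 10 arrays, UGT8 ranked 3 and CNP ranked 8 among 9286 genes set against MBP. Set against UGT8, MBP ranked 3 and CNP ranked 8. Set against CNP, UGT8 ranked 4 and MBP ranked 5. By contrast SOX10 ranked 841 against MBP, OLIG2 2640, CLDN11 3470 and PDGFRA 5275. All these genes were measured on the same arrays, so the ranks describe these 10 samples.

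The genes most like each member were named as the 3 of highest r. For MBP they were ARC, an activity-dependent neuronal gene, at 0.90, the fatty acid binding protein gene FABP9 at 0.86, and UGT8. For UGT8 they were EPB41L2, a membrane skeleton gene, at 0.89, HEPACAM, an adhesion gene of glia, at 0.86, and MBP. For CNP they were NGB, which encodes neuroglobin, at 0.88, LOC100859629 at 0.87, and the nuclear factor gene AFF3 at 0.85.

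The other members had other nearest genes. For OLIG2 they were TMEM33 at 0.93, CHP1 at 0.93 and ATP6V1D at 0.90. For SOX10 they were LRRC73 at 0.96, ITPR1 at 0.91 and SEPTIN5 at 0.90. For PDGFRA they were LARP6 at 0.90, AGPAT5 at 0.89 and PAN3 at 0.88. For CLDN11 they were DENND4A at 0.96 and the matrix genes FBN3 at 0.91 and FBLN2 at 0.89. These are the extremes of a ranking over 9286 genes and 10 arrays, given as a description.

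Of the 58 compared genes of the wider lineage and myelin lists, 3 had an r of at least 0.7 with MBP, as had 0.636% of all genes at or above the median level. TSPAN2, a tetraspanin of oligodendrocytes, had r = 0.79 with MBP, 0.72 with UGT8 and 0.80 with CNP, and 0.151% of all genes at or above the median level reached its value with MBP. BCAS1, a marker of newly myelinating cells, had r = 0.72 with MBP, 0.63 with UGT8 and 0.61 with CNP. The third was FGFR3, a growth factor receptor gene from the list of signals, with r = 0.71 with MBP, 0.78 with UGT8 and 0.57 with CNP. Among the marker lists of other cells, GLUL alone reached such a value. GLUL, the glutamine synthetase gene of astrocytes, had r = 0.84 with MBP, above that of TSPAN2 and of CNP, with 0.60 for UGT8 and 0.63 for CNP. SLC1A3, a glutamate transporter gene of astrocytes, had r = 0.61 with MBP, and the lowest of the astrocyte and radial glia genes was NES at -0.51. The myelin protein genes also held values below 0, such as -0.28 for CA2 and -0.057 for MOG. All but MOG were named after their values were seen. In all, 10 of 9284 genes (0.108%) had an r of at least 0.7 with each of MBP, UGT8 and CNP. By their lowest r, from 0.78 down to 0.70, they were EPB41L2, HEPACAM, IL6, GTF2I, FABP9, BG8, PPP2R3B, TSPAN2, CCDC92 and ADGRA3. TSPAN2 was the single gene of the wider lists among them. The 12 myelin protein genes at or above the median level had a median r of 0.29 with MBP. For the 13 genes of myelin lipid synthesis it was 0.084, where all genes had a median of 0.0015. The 9 astrocyte and radial glia genes had a median of 0.31, which is no lower than that of the myelin protein genes. The 2 genes of peripheral glia had 0.46 and the 8 neuronal genes 0.048.

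**Figure D5:**
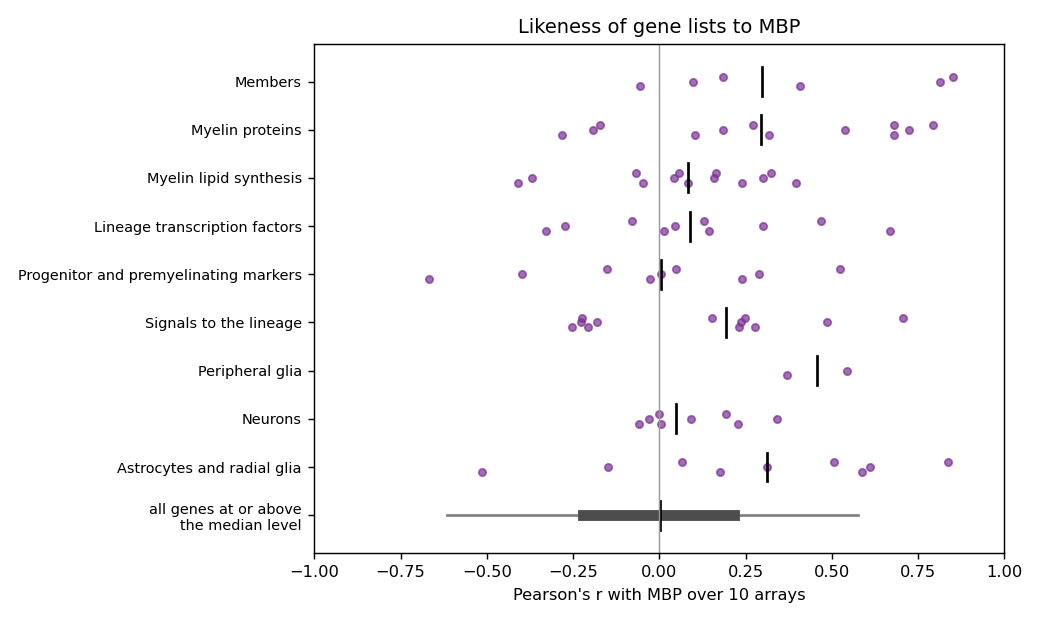
Pearson's r with MBP over the 10 arrays (horizontal axis) of each gene at or above the median level, by list (vertical axis), with the list median as a black line. The bottom row gives the middle 50% (thick) and 95% (thin) of all genes, the latter from -0.61 to 0.58. TSPAN2 and BCAS1 lie at the right among the myelin proteins, and UGT8 and CNP among the members.

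The signal of the myelin protein genes over background was uneven. A signal under the limit does not show that a transcript was absent, since probe sets differ in how well they bind. Of 16 measured genes of myelin proteins, 12 exceeded the background limit on all arrays, against 72.7% of all genes. MOG, a protein of the outermost myelin layer that appears late, did so on 8 of 10 arrays, with levels from 7.67 to 9.23. MAL exceeded the limit on 2 arrays, PLLP on 3 and JAM3 on 5. ENPP6, a marker of newly formed oligodendrocytes from the progenitor and premyelinating list, exceeded it on 2. MOBP, another protein of compact myelin, exceeded it on all 10, with levels from 10.43 to 11.24. These genes other than MOG were named after their values were seen. The regulator genes OLIG1, NKX2-2 and MYRF had no probe set under their symbol alone.

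The limit was exceeded on all arrays by 10 of 12 measured lineage transcription factor genes, 9 of 11 progenitor and premyelinating marker genes, 13 of 15 genes of myelin lipid synthesis and 12 of 22 genes of signals to the lineage, against 72.7% of all genes. SOX8 ran from 13.34 to 13.69 and SOX9 from 11.31 to 12.002 over the 10 arrays. NKX6-2 ran from 9.04 to 10.20. Among markers of progenitors and of cells about to myelinate, PTPRZ1 ran from 14.16 to 15.50, CSPG4, which encodes the NG2 proteoglycan, from 9.91 to 10.46, and GPR17 from 11.11 to 11.68. PDGFA from the signals list, the ligand of the PDGFRA receptor, ran from 13.66 to 14.01. The lipid enzyme genes ran from 9.58 to 10.36 for FA2H, from 9.58 to 10.34 for GALC, from 10.43 to 10.95 for GAL3ST1 and from 9.62 to 11.13 for ASPA. PMP22, better known from the myelin of peripheral nerves, ran from 12.17 to 12.61, and 2 of 5 measured genes of peripheral glia exceeded the background limit on all arrays, where 72.7% of all genes did.

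Few sex differences passed in these lists. Of 16 myelin protein genes, 12 lineage transcription factor genes, 11 progenitor and premyelinating marker genes, 22 genes of signals to the lineage and 5 genes of peripheral glia, 0 passed by limma with adjustment over all genes, where 1.79% of all genes did. At an unadjusted p under 0.05 there were 1 myelin protein gene, 2 progenitor and premyelinating marker genes, 0 in the other 3 of these lists, and 3 of 15 genes of myelin lipid synthesis, against 7.62% of all genes. The myelin protein gene was MOBP, which differed by 0.37 (SE 0.11, limma adjusted p = 0.25). The median differences of these lists were 0.011, -0.0092, -0.060, -0.074 and -0.100, against -0.021 over all genes. Of 15 genes of myelin lipid synthesis 1 passed, SPTLC1 on the Z chromosome, a subunit gene of the enzyme that starts sphingolipid synthesis. It averaged 13.30 ± 0.10 (SD, n = 5) over males and 12.20 ± 0.092 (SD, n = 5) over females, a ratio of 2.14 (difference 1.10, SE 0.071, limma adjusted p = 0.000107), with all males above all females. With the title letters as a replicate block on 8 arrays it differed by 1.15 (limma adjusted p = 0.087), and by 1.15 on the same arrays unpaired (limma adjusted p = 0.0021). Of the genes named above, CSPG4 differed by 0.20 (SE 0.10, adjusted p = 0.72), GPR17 by 0.017 (SE 0.12), SOX8 by -0.088 (SE 0.073), FA2H by -0.21 (SE 0.17) and MOG by -0.41 (SE 0.30, adjusted p = 0.86). Among the marker lists of other cells, FLT1 passed, a vessel gene that differed by 0.32 (SE 0.063, limma adjusted p = 0.034). That call was lost when any 1 array other than male replicate 1 or female replicate 5 was left out (limma adjusted p from 0.0504 to 0.0985), and the difference was 0.11 (limma adjusted p = 0.94) with the mean over its probe sets.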

How the data were processed

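Affymetrix chicken arrays measured total RNA of 5 male and 5 female whole brain samples. The deposited values are linear intensity per probe set, and tests on the values show that each array had been scaled to a common trimmed mean near 2500 (2499.8). No source used here names the software behind the deposited intensity.

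From these, log2(intensity + 16) was computed. After leaving out 96 manufacturer control probe sets, 38439 probe sets were tested in limma 3.58.1 (R 4.3.3), male minus female, with Benjamini-Hochberg adjustment and a threshold of 0.05. A gene was taken by its probe set of highest mean, which gave 13051 genes among 27168 probe sets with 1 symbol, while 177 with several were not named. Of these genes 12872 were found in the reference gene table, used for current symbols and chromosomes (assembly bGalGal1.mat.broiler.GRCg7b). Correlations over arrays used 100000 permutations, two-sided. The fit was also run on simulated data, with independent noise and with shifts larger than any member difference. That run does not bear on differences as small as those of the members.

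Named genes were all member probe sets, a fixed selection of the wider lists, any list gene past the threshold, and the 3 genes of highest r with each member. Members and lists were chosen with earlier results of these data known. Alternatives were quantile normalization, pseudocounts of 1 and 64, a filter on dim probe sets, a variance trend, array weights, other handling of probe sets, a block for the letters in the sample titles and leaving out each array. Letters B to E occur in both sexes, and the deviations of same-lettered arrays had correlations of 0.053, 0.11, 0.010 and -0.0057, so the letters were not taken to pair samples.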

Additional observations from a re-analysis of the deposited data

Results flagged for a closer look

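In each sex, the highest and the lowest array were compared with the other arrays of that sex. The measure was the gap to the nearest array as a share of the whole range. This was done for every member probe set and for some of the named genes, not all. TSPAN2, BCAS1 and MOBP, named after their values were seen, were among these genes. With 5 arrays the critical share is 0.71, and 4 of 54 groups tested exceeded it, where chance gives about 1 in 20 groups. The dimmer SOX10 probe set had male replicate 4 at 10.09 and the other males between 9.33 and 9.52, a share of 0.753. CLDN11 by its brighter probe set had female replicate 1 at 12.28 and the other females between 11.68 and 11.82, a share of 0.765. NKX6-2 had male replicate 5 at 10.15 and the other males between 9.56 and 9.69, a share of 0.78. PMP22 had female replicate 1 at 12.61 and the other females between 12.42 and 12.47, a share of 0.743.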

How the results depend on the processing

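Member differences under other settings gave 337 values, counted by probe set and again by gene. Of these, 290 kept their sign, 47 changed it and 0 passed the threshold. A gene was mostly read by its brightest probe set, so most gene differences repeat those of a probe set. With the title letters as a replicate block on 8 arrays, and on the same arrays unpaired (chosen after seeing the data), SOX10 by its brighter probe set was 0.13, MBP by its second brightest 0.061 and CLDN11 by its dimmer probe set -0.0064. The block left 0 probe sets higher in males and 2 higher in females, against 121 and 43 unpaired and 247 and 60 on all arrays, and 0 members in each. SOX10 was 0.027 with the mean over its probe sets. Leaving out 1 array gave signs of both kinds for SOX10 by its brighter probe set (-0.19 to 0.029), PDGFRA (-0.11 to 0.0056), CNP (-0.018 to 0.18), UGT8 (-0.073 to 0.11), MBP by its brightest probe set (-0.015 to 0.12), by the second brightest (-0.075 to 0.063) and by the dimmest (-0.030 to 0.077), and CLDN11 by its dimmer probe set (-0.059 to 0.15). The count of wider list genes past the threshold went from 1 to 0 with the replicate block. There SPTLC1 differed by 1.15 (limma adjusted p = 0.087). A variance trend brought the count to 3. It added VCAN on the Z chromosome (0.39, limma adjusted p = 0.014) and ENPP2 on chromosome 2 (-0.43, limma adjusted p = 0.043). The other Z genes of these lists, HMGCS1, NRG1 and ELOVL7, did not pass. Without the trend they differed by 0.21, 0.13 and -0.43 (limma adjusted p = 0.79, 0.77 and 0.36). The number of correlated pairs ran from 0 to 3 on leaving out 1 array. Of the 21 genes named as most like a member, 12 were named again after subtracting the mean of each sex. The cause of these shifts was not tested. Signal over background limits MOG, MAL, PLLP, JAM3 and ENPP6, which lay below the background limit on some arrays.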
